A study of Mus musculus with 8 samples.

Results

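The early response genes Egr1, Egr2, Egr3, Nr4a1, Klf2, Klf4, Klf6, Ier2, Ier3 and Ier5 were followed in single microglia of the mouse lumbar spinal cord. These 10 genes were chosen by symbol out of the 27998 genes counted, and each symbol matched 1 gene. The cells were YFP (+) microglia, the macrophages that reside in brain and spinal cord, sorted by flow cytometry from C57BL/6 mice in 8 libraries. All animals carried Cx3cr1-yfp-creER/+, which drives both YFP and a tamoxifen-inducible Cre from the Cx3cr1 locus of microglia and other macrophages. The 4 control libraries carried no other allele, and the 4 A20 cKO libraries carried Tnfaip3 fl/fl as well, where A20 is the protein encoded by Tnfaip3, an inhibitor of NF-κB signaling. Both genotypes were sampled without injury (naive) and 1, 2 and 3 days after bilateral sciatic nerve transection, with 1 library for each. Per the methods, recombination was by tamoxifen, the animals were young adults, and the cords of several animals were pooled, so each of the 8 groups was 1 library with no replicate.

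Early response genes are transcribed within minutes of a stimulus, from promoters that are ready before it, and their short-lived RNAs fall again when the stimulus ends or feedback proteins act. EGR proteins are zinc-finger transcription factors that bind GC-rich sites, NR4A proteins are orphan nuclear receptors, KLF proteins are zinc-finger factors that bind GC boxes and CACCC elements, and IER proteins are small immediate-early regulators. In macrophages and microglia such genes respond to growth factors, to pattern receptors, and also to the handling of tissue and cells.

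RefSeq promoters (GRCm38.p6, 250 bases before each start) were given for 7 of the 10 genes, in 11 promoters, and not for Egr1, Egr3 and Ier2. They were searched on both strands for 5 motifs through which early response genes are known to be induced or to act on each other. The windows with a match are shown so that the motif each gene holds can be seen. Egr2 held the CArG box, the site of serum response factor, which stood in 1.47% of all 32851 promoters. Klf2, Klf4 and Nr4a1 held an EGR site (GCGTGGGCG or GCGGGGGCG), found in 3.06% of promoters. Ier3 held a kappa B site, the site of NF-κB, found in 3.90%. No promoter of the 7 genes held the CRE (TGACGTCA, in 1.55% of promoters) or the AP-1 site (TGANTCA, in 6.75%), and no motif was found in Klf6 or Ier5. A match says that the letters are there, not that a factor bound. Capitals mark the motif in the lines that follow, each of which reads 5′ to 3′ on the strand of the gene.
Egr2, CArG box, chr10:67537767-67537836, plus strand: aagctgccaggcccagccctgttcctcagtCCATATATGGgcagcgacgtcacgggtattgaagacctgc
Egr2, CArG box, chr10:67537464-67537533, plus strand: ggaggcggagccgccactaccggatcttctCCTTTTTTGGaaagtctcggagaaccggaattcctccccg
Ier3, kappa B site, chr17:35821591-35821660, plus strand: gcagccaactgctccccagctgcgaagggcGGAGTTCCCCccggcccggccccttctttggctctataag
Klf2, EGR site, chr8:72318833-72318901, plus strand: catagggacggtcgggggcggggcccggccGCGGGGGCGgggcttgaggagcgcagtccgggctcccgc
Klf4, EGR site, chr4:55532631-55532699, minus strand: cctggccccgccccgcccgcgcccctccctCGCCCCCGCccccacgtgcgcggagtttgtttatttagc
Nr4a1, EGR site, chr15:101266756-101266824, plus strand: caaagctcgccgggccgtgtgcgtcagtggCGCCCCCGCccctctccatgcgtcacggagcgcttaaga
None of these windows overlapped an exon of GENCODE M21. The Egr2 and Nr4a1 windows lie before a downstream start of the gene and inside its annotated span, and the others lie outside annotated genes.

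The libraries held between 579 and 3585 cell barcodes and between 1648400 and 15817426 UMIs, which count captured RNA molecules. Cells with at least 1000 UMIs, at least 500 genes and at most 10% mitochondrial UMIs were kept, 14626 of 14883, with medians of 2780 to 4274 UMIs. Levels are given as CPM, the UMIs of a gene in the kept cells of a library per 1000000 UMIs, and ranges in parentheses are exact 95% intervals that cover counting error only. No test between groups was possible with 1 library each. Fewer cells with a gene and less RNA per cell are not separated by CPM, so shares of cells with a UMI are given too. Control day 3 and the 4 A20 cKO libraries shared 256 barcodes in their 10 pairs, 13.2 per 1000000 pairs of barcodes, against 1.77 between them and the other 3 libraries and 1.67 among those 3. The same 5 libraries held more marker RNA of several other cell types. The summed level of 5 oligodendrocyte markers was 110 to 169 CPM in them and 23.3 to 36.4 CPM in control naive, day 1 and day 2. That of 5 monocyte and neutrophil markers was 47.3 to 109 CPM against 1.85 to 3.70, and that of 3 choroid plexus and ependymal markers was 131 to 414 CPM against 0 to 0.213. Endothelial and lymphocyte markers did not follow this split. Endothelial markers were at 51.2, 16.9 and 13.6 CPM in control naive, day 1 and day 2, and at 26.8 to 44.2 CPM in the 5 libraries. Lymphocyte markers were highest in control day 2, with 3.10 CPM against at most 0.412 CPM in the 5 libraries. Control naive, day 1 and day 2 are therefore called the unlinked libraries and the other 5 the linked libraries, and it is said of each comparison whether it crosses between them. The part of this split in the results was not tested. The microglial markers P2ry12, Tmem119, Csf1r, Cx3cr1, Fcrls and Sall1 were detected in every library, but not in equal shares of cells. Fcrls was found in 97.6%, 96.3% and 86.1% of control cells on days 1, 2 and 3. In A20 cKO it was found in 59.96% of naive cells and in 59.9%, 31.9% and 26.7% of cells on days 1, 2 and 3. Tnfaip3 itself was at 42.3 to 67.7 CPM in A20 cKO and 6.83 to 25.3 CPM in control, but 3′ reads need not fall in the deleted part and so do not check the deletion.

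Egr1, Egr2 and Egr3 were highest in control day 1, and in the A20 cKO libraries Egr1 was high in naive and day 3 and low on days 1 and 2. Egr1 (ENSMUSG00000038418, GRCm38 chr18:34859823-34864984), which couples growth factor signals to transcription, was at 11.7 CPM (7.06 to 18.3) in the naive control library, and 848 (833 to 863), 46.7 (43.4 to 50.1) and 79.7 (73.4 to 86.5) on days 1, 2 and 3. In A20 cKO Egr1 was at 219 CPM (210 to 229) in naive cells, and 11.6 (8.05 to 16.1), 7.58 (4.81 to 11.4) and 210 (193 to 229) on days 1, 2 and 3. In the order of levels control day 1 was alone at the top, followed by A20 cKO naive and day 3 without a gap between their intervals, then control day 3, then control day 2, and last control naive with A20 cKO days 1 and 2 without a gap. A UMI of Egr1 was found in 2.82%, 89.8%, 16.8% and 18.4% of control cells (naive, days 1, 2 and 3) and in 37.5%, 3.27%, 2.099% and 38.7% of A20 cKO cells. Since no cell type in these libraries is known to lack early response genes, no background share from free RNA could be read, and the share of 2.099% in A20 cKO day 2 is an upper limit for it in that library alone.

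Egr2 (ENSMUSG00000037868, chr10:67535475-67542188), a factor of myelinating Schwann cells and of macrophage activation, had 0 UMIs in control naive, where 3 counts would be 1.85 CPM. It was at 49.0 CPM (45.4 to 52.8), 3.16 (2.35 to 4.17) and 3.43 (2.22 to 5.06) on control days 1, 2 and 3. In A20 cKO it was at 10.7 CPM (8.62 to 13.0) in naive cells, and 5.28 (3.02 to 8.58), 0.659 (0.0798 to 2.38) and 8.66 (5.43 to 13.1) on days 1, 2 and 3. Only control day 1 stood apart from its neighbour in this order. Egr3 (ENSMUSG00000033730, chr14:70077203-70082614), known from muscle spindles and lymphocytes, was rarer still. It had 0 UMIs in control naive and A20 cKO day 2, 1 or 2 UMIs in control days 2 and 3 and A20 cKO day 1, and 118 UMIs in control day 1 (8.39 CPM, 6.95 to 10.1). In A20 cKO naive Egr3 had 30 UMIs (3.36 CPM, 2.27 to 4.80) and in A20 cKO day 3 it had 13 (5.12 CPM, 2.72 to 8.75), so its 3 highest libraries were those of Egr1 and Egr2. The intervals of Egr3 in control day 1 and A20 cKO day 3 overlapped, so these 2 libraries did not differ at this depth.

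Nr4a1 (ENSMUSG00000023034, chr15:101254269-101274795), the nuclear receptor Nur77 that restrains inflammatory gene expression in myeloid cells, was near the limit of detection everywhere. It had 0, 52, 7 and 24 UMIs in control naive, days 1, 2 and 3, and 5, 12, 4 and 6 UMIs in A20 cKO. The highest level was 3.96 CPM (2.05 to 6.92) in A20 cKO day 1, next to 3.70 (2.76 to 4.85) in control day 1 and 3.29 (2.11 to 4.90) in control day 3. No library of Nr4a1 stood apart from the next in order. It was the one gene of the 10 for which control day 1 was not the highest library, and at most 1.44% of the cells of any library held a UMI.

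Klf2, Klf4 and Klf6 were also highest in control day 1, where Klf2 was seen in nearly every cell. Klf2 (ENSMUSG00000055148, chr8:72319033-72321656), which keeps endothelial cells and macrophages quiescent, was at 64.8 CPM (53.0 to 78.4) in the naive control library, and 3245 (3215 to 3274), 300.4 (292 to 309) and 455 (440 to 471) on days 1, 2 and 3. In A20 cKO it was at 528 CPM (513 to 543) in naive cells, and 135 (122 to 148), 143 (130 to 157) and 402 (378 to 428) on days 1, 2 and 3. Control naive was the lowest library of Klf2 and stood apart from all others, and 6 of the 7 neighbours in its order did not overlap. A UMI of Klf2 was found in 15.1% of control naive and 99.4% of control day 1 cells, and in 25.6% to 61.6% of the cells of the other libraries.

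Klf4 (ENSMUSG00000003032, chr4:55527143-55532466), a pluripotency factor that also shapes macrophage polarization, had a lower second tier. It was at 10.5 CPM (6.11 to 16.8) in the naive control library, and 425 (415 to 436), 14.9 (13.1 to 17.0) and 62.7 (57.1 to 68.7) on days 1, 2 and 3. In A20 cKO it was at 62.1 CPM (57.0 to 67.5) in naive and 32.4 (26.3 to 39.4), 25.4 (20.03 to 31.7) and 31.5 (25.0 to 39.2) on days 1, 2 and 3. Unlike Egr1, Klf4 was thus not back at its naive level in A20 cKO day 3. Klf6 (ENSMUSG00000000078, chr13:5861482-5870394), expressed in many tissues and known as a promoter of inflammatory macrophage genes, had the narrowest span of the KLF genes. Its level was 186 CPM (165 to 208), 1029 (1012 to 1046), 214 (207 to 221) and 287 (275 to 300) in control and 356 (344 to 368), 274 (256 to 293), 220.2 (204 to 238) and 304 (283 to 326) in A20 cKO. The libraries other than control day 1 all lay between 186 and 356 CPM.

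Ier2, Ier3 and Ier5 differed from one another outside control day 1. Ier2 (ENSMUSG00000053560, chr8:84661331-84662852), a nuclear protein induced by growth factors, was at 40.7 CPM (31.5 to 51.8), 1992 (1968 to 2015), 94.1 (89.4 to 99.0) and 140 (131 to 149) in control. In A20 cKO it was at 230.4 CPM (221 to 241), 78.6 (68.9 to 89.2), 50.4 (42.8 to 59.1) and 202 (185 to 220.1), high in naive and day 3 and low in between like Egr1. Ier3 (ENSMUSG00000003541, chr17:35821684-35822923), a target of NF-κB that limits cell death, was at 13.6 CPM (8.51 to 20.6), 209.7 (202 to 217), 18.7 (16.6 to 20.9) and 20.997 (17.8 to 24.6) in control. Its second highest library was A20 cKO day 1, with 35.7 CPM (29.3 to 43.1), against 18.1 (15.4 to 21.1) in A20 cKO naive, 20.8 (16.0 to 26.6) on day 2 and 29.5 (23.2 to 37.0) on day 3. Ier5 (ENSMUSG00000056708, chr1:155096361-155099636), a co-factor of the heat shock response, was at 272 CPM (247 to 299), 1123 (1106 to 1141), 289 (281 to 297) and 216 (205 to 227) in control and 324 (312 to 336), 200.4 (185 to 217), 150.3 (137 to 165) and 313 (291 to 335) in A20 cKO. It was the only one of the 10 with a lower level in control day 3 than in control naive.

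**Figure D1:**
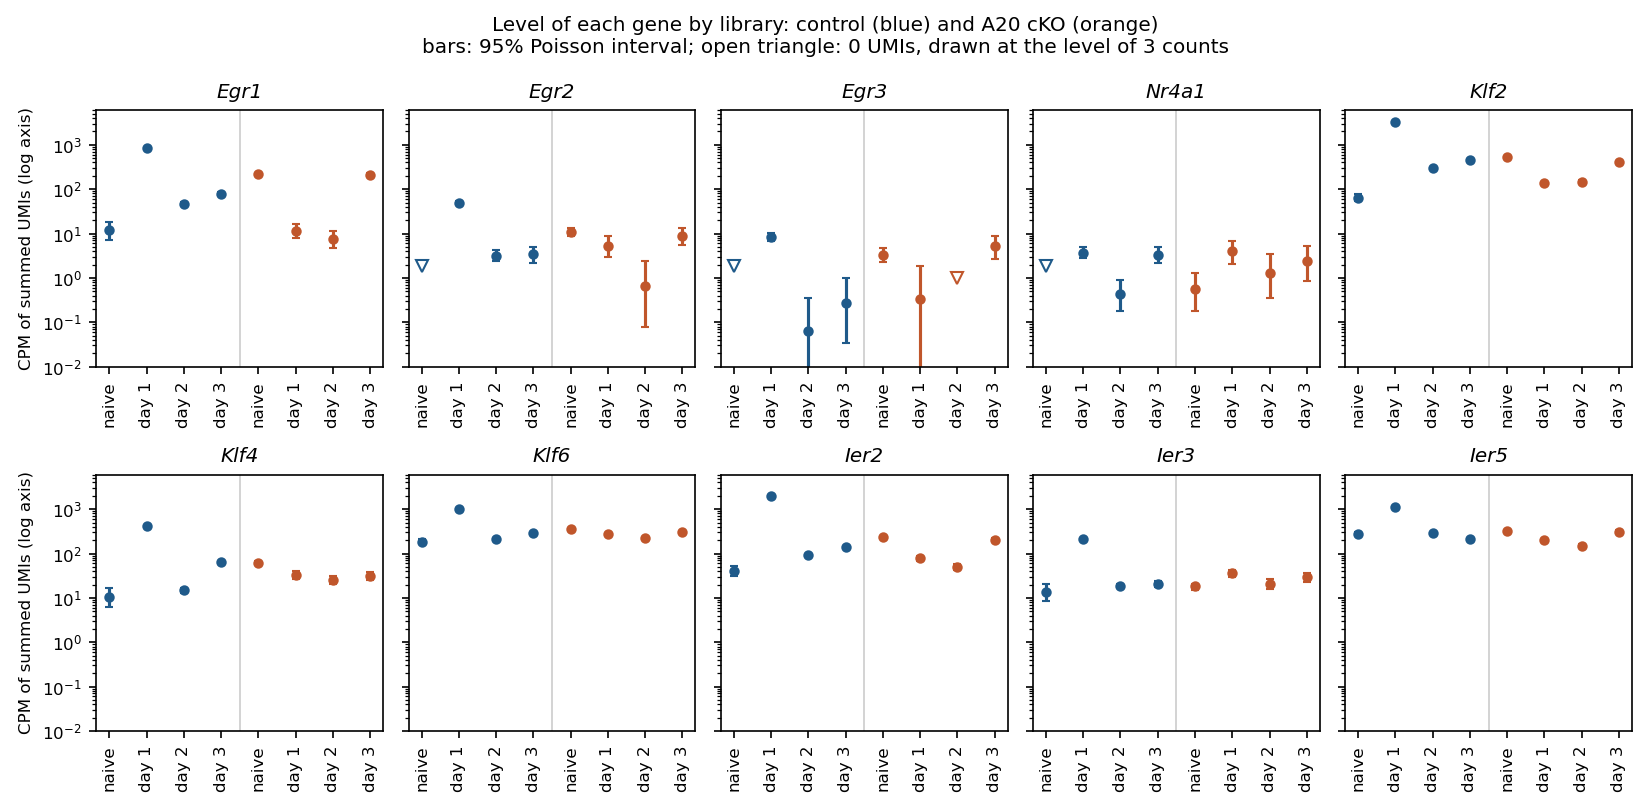
Level of each of the 10 genes by library, as CPM on a log axis, with control in blue and A20 cKO in orange, each in the order naive, day 1, day 2 and day 3. Bars are 95% Poisson intervals and open triangles mark 0 UMIs, drawn at the level of 3 counts. Control day 1 is the top point in 9 of 10 panels, and the A20 cKO points of Egr1 and Ier2 are high in naive and day 3 and low in between.

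The first comparison asked how control microglia differed 1 day after injury. Of the 9 genes with at least 100 UMIs in both libraries together, 9 were at least 2-fold higher in control day 1 than in naive, against 3.82% of all 8866 genes compared, and 0 were lower (7.25%). Both libraries are unlinked. The ratio was 70.5-fold for Egr1 (log2 6.14, 5.53 to 6.91), 49.8-fold for Klf2 (log2 5.64, 5.37 to 5.94), 48.5-fold for Ier2 (log2 5.60, 5.26 to 5.98) and 39.4-fold for Klf4 (log2 5.30, 4.66 to 6.12). It was smaller for Ier3 (15.1-fold), Klf6 (5.53-fold) and Ier5 (4.12-fold). Egr2 and Egr3, with 0 UMIs in naive, were at least 26.5-fold and at least 4.53-fold higher. Nr4a1 was left out of the count for its few UMIs, and was at least 2.00-fold higher. The median log2 ratio of the 9 genes was 5.30, or 4.73 with Egr2 and Egr3 at their bounds, while that of all genes was −0.13. Over the 11 comparisons the median of all genes lay between −0.13 and 0.15, and relative to it the counts given here and in the next paragraphs were the same except on A20 cKO day 1, where 4 genes and not 3 were lower. Egr1, Klf2, Klf4, Klf6, Ier2 and Ier5 also stand in a list of genes that the study picked from these libraries. It holds genes upregulated in S-phase cells (those copying DNA) of control day 1 against control day 2. The list draws on the same day 1 library, so the direction of these genes here is not independent of that choice.

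Control day 2 is unlinked too, so neither of its comparisons with day 1 and naive crosses. On day 2 the same 9 genes were all at least 2-fold lower than on day 1, against 1.83% of 9982 genes, and 0 were higher (3.80%). The study's list with Egr1, Klf2, Klf4, Klf6, Ier2 and Ier5 came from S-phase cells of these same 2 libraries. The direction of these genes is therefore not independent of that choice. Egr3 had the lowest ratio of log2, −6.47 (−12.37 to −4.55), resting on 1 UMI in day 2, followed by Klf4 with −4.83 (−5.03 to −4.65), Ier2 with −4.40 (−4.48 to −4.33) and Egr1 with −4.18 (−4.29 to −4.08). Klf6 and Ier5, which had the smallest ratios on day 1, had the smallest here too, −2.27 and −1.96. Compared with naive, day 2 had 3 of 7 genes at least 2-fold higher (5.92% of 9279 genes) and 0 lower (6.28%). These were Klf2 (log2 2.21, 1.93 to 2.51), Egr1 (1.96, 1.34 to 2.73) and Ier2 (1.20, 0.85 to 1.59), whereas Klf4 (0.47), Ier3 (0.43), Klf6 (0.20) and Ier5 (0.09) lay within 2-fold. Klf2 and Egr1 therefore stayed above naive on day 2 while Klf4, which had a similar ratio on day 1, did not, and the interval of Klf4 reached 0 (−0.20 to 1.31).

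Control day 3 against naive crosses between unlinked and linked libraries. There 4 of 7 genes were at least 2-fold higher (8.76% of 8302 genes) and 0 lower (2.32%), the higher ones being Klf2 (log2 2.81, 2.53 to 3.11), Egr1 (2.73, 2.11 to 3.51), Klf4 (2.54, 1.88 to 3.37) and Ier2 (1.77, 1.42 to 2.16). Ier5 was on the other side of 0 (−0.34, −0.49 to −0.18). From day 2 to day 3, which crosses as well, Klf4 alone of 7 genes was at least 2-fold higher (log2 2.07, 1.84 to 2.30), where 13.1% of 9887 genes were, and 0 were lower (2.69%). The injury effect on day 3 and the library split cannot be told apart in these comparisons.

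The next comparison was of the 2 genotypes without injury. A20 cKO naive, a linked library, had 4 of 7 genes at least 2-fold higher than control naive, an unlinked one, against 7.43% of 8641 genes, and 0 lower (2.22%). Egr1 was 18.2-fold higher (log2 4.19, 3.58 to 4.96), Klf2 8.11-fold (3.02, 2.75 to 3.32), Klf4 5.76-fold (2.53, 1.87 to 3.36) and Ier2 5.62-fold (2.49, 2.15 to 2.88). Klf6 was at 0.94, Ier3 at 0.38 and Ier5 at 0.25 on the log2 scale. Egr2 was at least 5.75-fold and Egr3 at least 1.82-fold higher, both outside the count. These values cannot be told apart from the library split.

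Control day 3 is the one linked control library. Against it, A20 cKO naive had 2 of 8 genes at least 2-fold higher, where 0.964% of 9541 genes were, and 0 lower (1.49%). The higher ones were Egr2 (log2 1.61, 0.99 to 2.33) and Egr1 (1.46, 1.33 to 1.60), and Egr3, with 32 UMIs in both libraries and so outside the count, had a ratio of 3.32 (1.64 to 6.73). The KLF genes were close to control day 3, with Klf2 at 0.21 (0.15 to 0.28), Klf4 at −0.01 (−0.20 to 0.17) and Klf6 at 0.31 (0.23 to 0.39). Ier2 was at 0.72, Ier5 at 0.58 and Ier3 at −0.22. Nr4a1, with 29 UMIs, was on the other side (−2.45, −4.30 to −1.14). On day 3 of both genotypes Egr1 was 2.64-fold higher in A20 cKO (log2 1.40, 1.23 to 1.57), the only one of 7 genes past 2-fold (1.86% of 8488 genes were higher and 2.40% lower), while Klf4 was near 2-fold lower (−0.99, −1.36 to −0.65) and Klf2 close to even (−0.18, −0.28 to −0.08). Both A20 cKO libraries are set against the same control day 3 library.

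Injury of A20 cKO animals was compared within the linked libraries. On day 1, 3 of 8 genes were at least 2-fold lower than in A20 cKO naive (1.39% of 8919 genes) and 0 were higher (1.56%). Egr1 was 18.7-fold lower (log2 −4.23, −4.77 to −3.77), Klf2 3.91-fold (−1.97, −2.12 to −1.82) and Ier2 2.93-fold (−1.55, −1.75 to −1.36). Egr2 (−0.97, −1.88 to −0.24) and Klf4 (−0.93, −1.27 to −0.63) lay just inside 2-fold, while Ier3 was on the other side, just inside 2-fold as well (0.98, 0.62 to 1.34). On day 2, 5 of 7 genes were at least 2-fold lower (2.65% of 8921 genes) and 0 higher (2.86%), Egr1 by 28.3-fold (−4.82, −5.52 to −4.27), Ier2 by 4.55-fold, Klf2 by 3.70-fold, Klf4 by 2.43-fold and Ier5 by 2.15-fold. On day 3, 0 of 8 genes were past 2-fold in either direction (1.92% of 8797 genes were higher and 2.00% lower), with Egr1 at −0.06 (−0.20 to 0.08), Klf4 at −0.97 (−1.34 to −0.64) and Ier3 at 0.71 (0.29 to 1.11). All 3 days share the A20 cKO naive library. The share of cells with UMIs of 2 or more markers of 1 other cell type was 3.80% in A20 cKO naive and 6.32%, 11.4% and 9.32% on the 3 days after injury. Without those cells 4 genes were lower on day 1, with Klf4 at −1.03, and 1 was higher, Ier3 at 1.04, while the counts on days 2 and 3 were as with all cells.

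**Figure D2:**
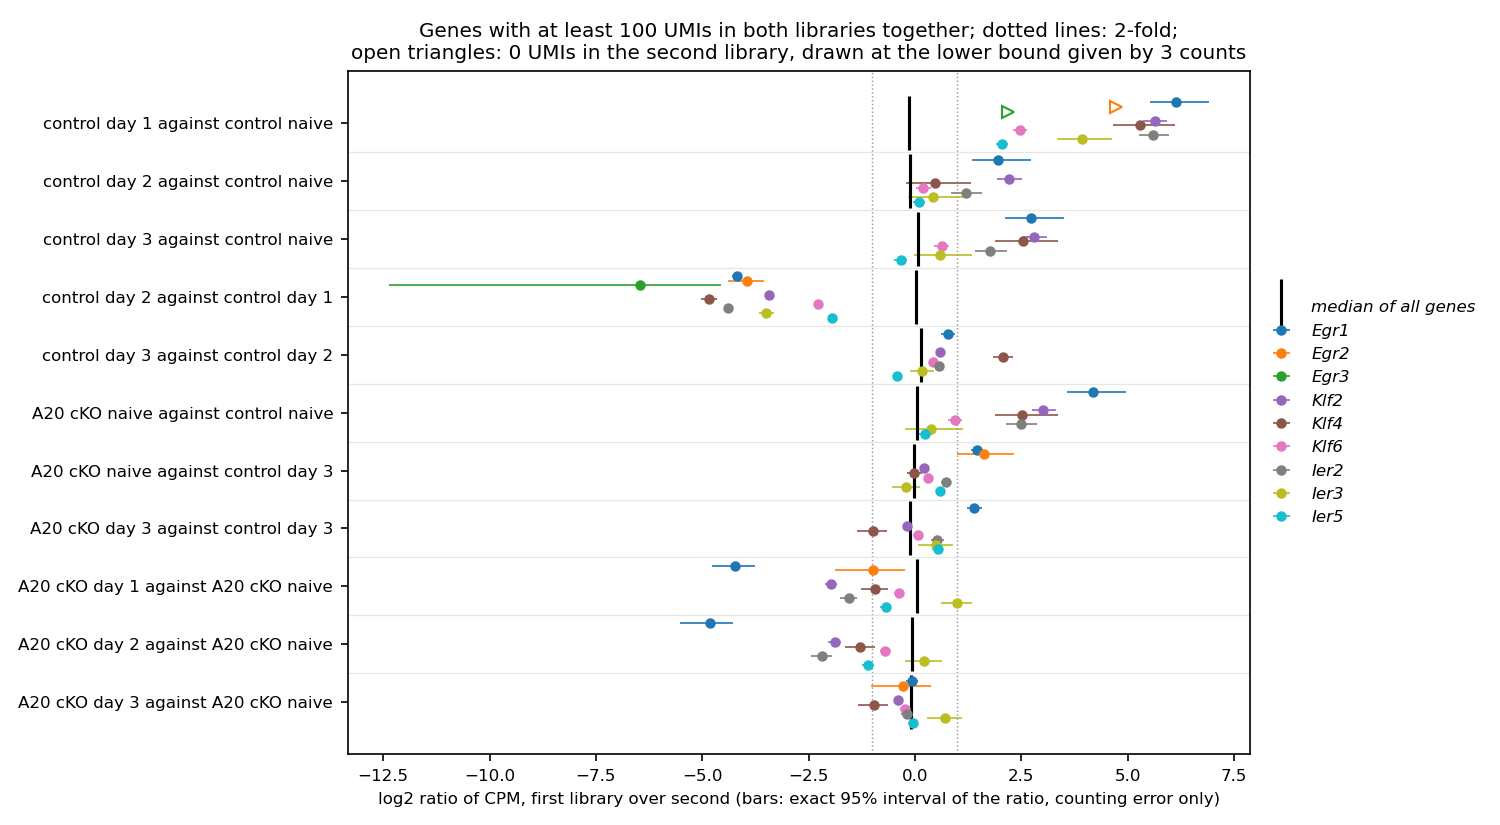
Log2 ratio of CPM of each gene with at least 100 UMIs in the 11 comparisons, with exact 95% intervals of counting error, a black tick at the median of all genes and dotted lines at 2-fold. Every gene is to the right in control day 1 against naive and to the left in day 2 against day 1, and Egr1 is the gene farthest to the left in A20 cKO days 1 and 2.

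Single cells showed how widely the genes were detected. For this every cell was thinned to 2000 UMIs, so that depth was equal, and cells with UMIs of at least 3 of the 10 genes were counted. Their share was 3.59% (2.14 to 5.61) in the naive control library, and 98.3% (97.8 to 98.7), 16.4% (15.1 to 17.6) and 22.6% (20.7 to 24.5) on days 1, 2 and 3. In A20 cKO it was 35.0% (33.2 to 36.9) in naive cells, and 8.43% (6.63 to 10.5), 5.43% (3.79 to 7.51) and 27.1% (23.4 to 31.1) on days 1, 2 and 3. Without thinning the shares were 7.92%, 99.7%, 47.9% and 42.8% for control, against 47.8%, 20.7%, 24.3% and 50.7% for A20 cKO. Nearly all cells of control day 1 thus held several of the genes. None of its 3225 thinned cells lacked all 10 genes, which allows a share of up to 0.0930%, against 34.7% in control naive. The mean number of genes detected in a thinned cell was 5.15 in control day 1, against 0.934 in control naive and 2.07 in A20 cKO naive.

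**Figure D3:**
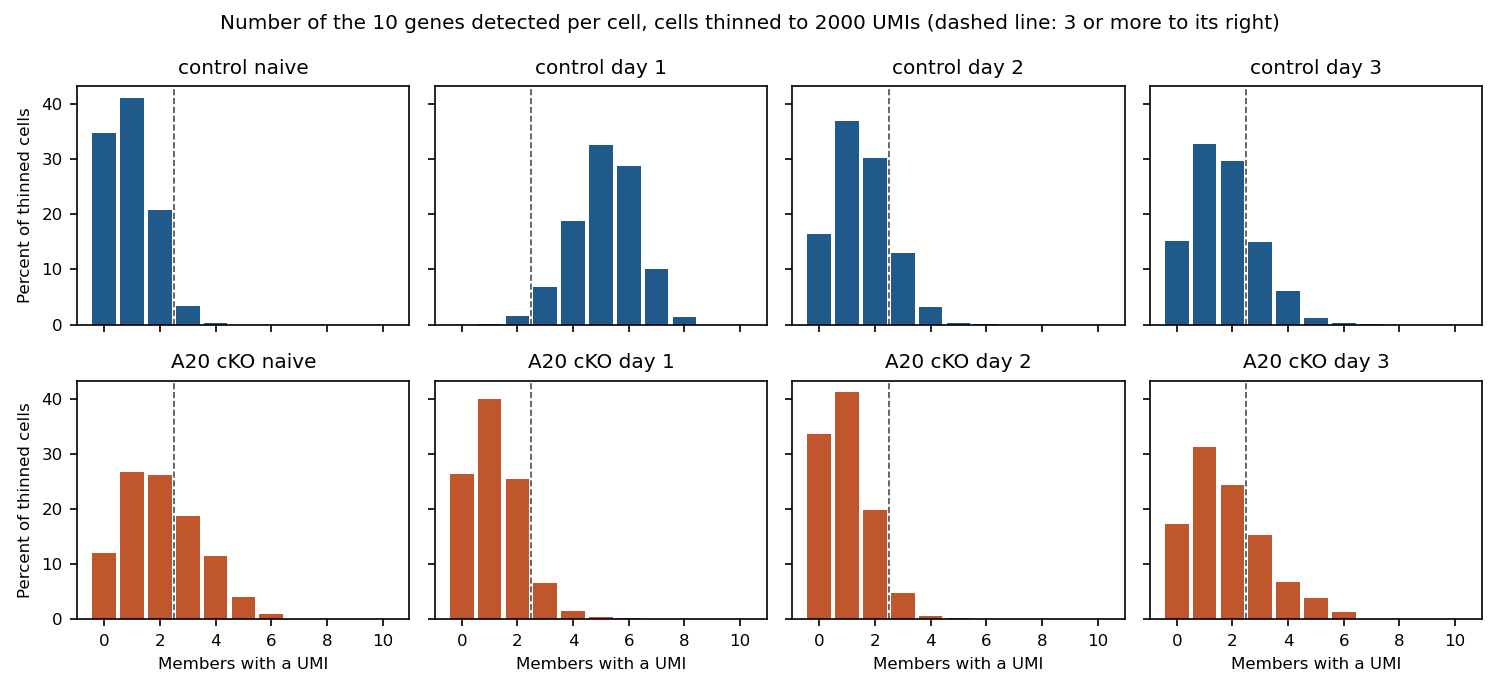
Percent of thinned cells by the number of the 10 genes with a UMI, 1 panel per library, with 3 or more to the right of the dashed line. In control day 1 nearly the whole distribution (98.3% of cells) lies to the right with a median of 5 genes, while control day 3 and A20 cKO naive and day 3 have a median of 2 and a tail to 7, 7 and 6 genes.

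The number of cells that held both genes of a pair was set against the product of their shares, which is what independent genes would give. The ratio of cells with both genes to that product had a median of 1.24 over 25 pairs in A20 cKO naive, with 24 above 1, and of 1.37 over 14 pairs in A20 cKO day 3, with 13 above 1. It was 1.02 over 41 pairs in control day 1 (36 above 1), where nearly every cell held the common genes, 1.05 over 18 pairs in control day 2 (13) and 1.08 over 19 pairs in control day 3 (16). In A20 cKO days 1 and 2 it was 1.02 over 10 pairs (6) and 1.00 over 6 pairs (3), and control naive had 4 pairs with enough cells. Egr1 and Ier2 were found together in 301 of 2612 thinned cells of A20 cKO naive, 1.43 times the product of their shares, in 60 of 538 of A20 cKO day 3, 1.93 times, and in 75 of 1878 of control day 3, 1.68 times. Egr1 and Egr2 were together in 25 cells of A20 cKO naive, 1.63 times the product. Depth was equal by thinning, and pairs that share a gene are not independent. The UMIs were also unevenly spread over cells. The tenth of cells with most UMIs of Egr1 held 50.9% of them in A20 cKO naive and 26.9% in control day 1, and the highest cell of Klf2 in control day 1 had 78 UMIs. These values were taken without thinning, and such a share is larger where a gene has fewer UMIs per cell. In thinned cells the variance of Egr1 UMIs over their mean was 1.49 in A20 cKO naive and 1.35 in control day 1. For Klf2 it was 2.91 and 3.18.

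The A20 cKO naive cells with 3 or more of the genes (915 cells) were set against its other 1697 thinned cells. Genes had to average 50 CPM or more, and those with the highest ratios were Fosb (log2 2.05), Fos (1.97), Adamts1 (1.66), Jun (1.31) and Dusp1 (1.28), of which Fosb, Fos and Jun are AP-1 subunits, Adamts1 is a secreted protease and Dusp1 is a MAP kinase phosphatase. The lowest were the chemokine Cxcl13 (−1.23, −1.39 to −1.08), the interferon-induced Mnda (−0.81), the NADPH oxidase subunit Cybb (−0.78), Tm9sf4 (−0.71) and the chemokine Ccl5 (−0.68, −0.76 to −0.61). Median depth was 3003 UMIs in the first set and 2905 in the second before thinning, and Fcrls was detected in 54.0% and 48.5% of them after it. In control day 1 only 54 cells had fewer than 3 of the genes. There Nfkbiz, Fosb, Rab18, Rgs1 and Ino80e had the highest ratios and Dhodh, Ubp1, Slc26a2, Gna12 and Mrpl1 the lowest, from 1 to 14 UMIs in the 54 cells, with Fosb at 2.02 (1.32 to 2.95).

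Related genes were counted in lists chosen by function. Of 7 AP-1 genes 6 were at least 2-fold higher in control day 1 than in naive (median log2 3.92), where 3.82% of all genes were. Fos was at 20.4 CPM in control naive and 4105 on day 1 (log2 7.63, 7.17 to 8.19), Jun at 338 and 5124 (3.92, 3.80 to 4.05), and Fosl2 was the gene within 2-fold (0.56). Of 12 early feedback genes, which encode phosphatases, RNA-binding proteins and other brakes on signaling, 9 were higher (median 2.05), with Dusp1 at 6.32, Socs3 at 3.78 and Btg2 at 2.97, and Dusp6, Btg1 and Rgs2 lay within 2-fold. Of 5 heat shock genes with enough UMIs 5 were higher (median 2.70). Hspa1a was at 155 CPM in control day 1, at 0 UMIs in control naive and at most 5.56 CPM in the others, and Hspb1 was at 53.8 CPM against at most 3.63. Heat shock RNA thus moved with the 10 genes in that library, and its part in the result was not tested.

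The list of other EGR, NR4A and KLF genes gave no gene past 2-fold in this comparison. Of 11, 5 had enough UMIs and all lay within 2-fold (Klf3 −0.21, Klf7 −0.04, Klf10 0.86, Klf13 0.07, Klf16 −0.10). Egr4, Nr4a2, Nr4a3 and Klf5 were at most at 1.57 CPM in every library. Of 12 upstream factors and EGR corepressors 0 were at least 2-fold higher (3.82% of all genes were) and 2 were lower (7.25%), Mkl1 (−1.88) and Mef2d (−1.23). Srf itself was at 0.04 (−0.69 to 0.96) and the corepressors Nab1 and Nab2, which EGR proteins bind, were at 0.96 and 0.07. Of 7 microglial identity genes 1 was at least 2-fold lower, Sall1 (−1.11), where 7.25% of all genes were.

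In A20 cKO naive against control naive 4 of 7 AP-1 genes, 5 of 10 feedback genes and 1 of 3 heat shock genes were at least 2-fold higher, where 7.43% of all genes were, led by Fosb (4.78), Fos (4.62), Dusp1 (3.27) and Rgs1 (2.65). Against control day 3 the same lists had 0 of 7, 1 of 10 and 0 of 3, against 0.964% of all genes. On A20 cKO day 1 against A20 cKO naive 4 of 7 AP-1 genes and 5 of 10 feedback genes were at least 2-fold lower and 0 of 3 heat shock genes, against 1.39% of all genes, with Fosb at −5.92, Fos at −5.25, Dusp1 at −3.79 and Jun at −3.10. On day 2 the counts were 6 of 7, 6 of 10 and 0 of 3 lower, against 2.65%. Of 7 microglial identity genes 1 was at least 2-fold lower in A20 cKO naive than in control naive, against 2.22% of all genes. Compared with A20 cKO naive, 0 of these 7 were lower on day 1 (1.39% of all genes), 2 on day 2 (2.65%) and 2 on day 3 (2.00%). Hspa1a was at 1.32 to 4.37 CPM in the 4 A20 cKO libraries.

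**Figure D4:**
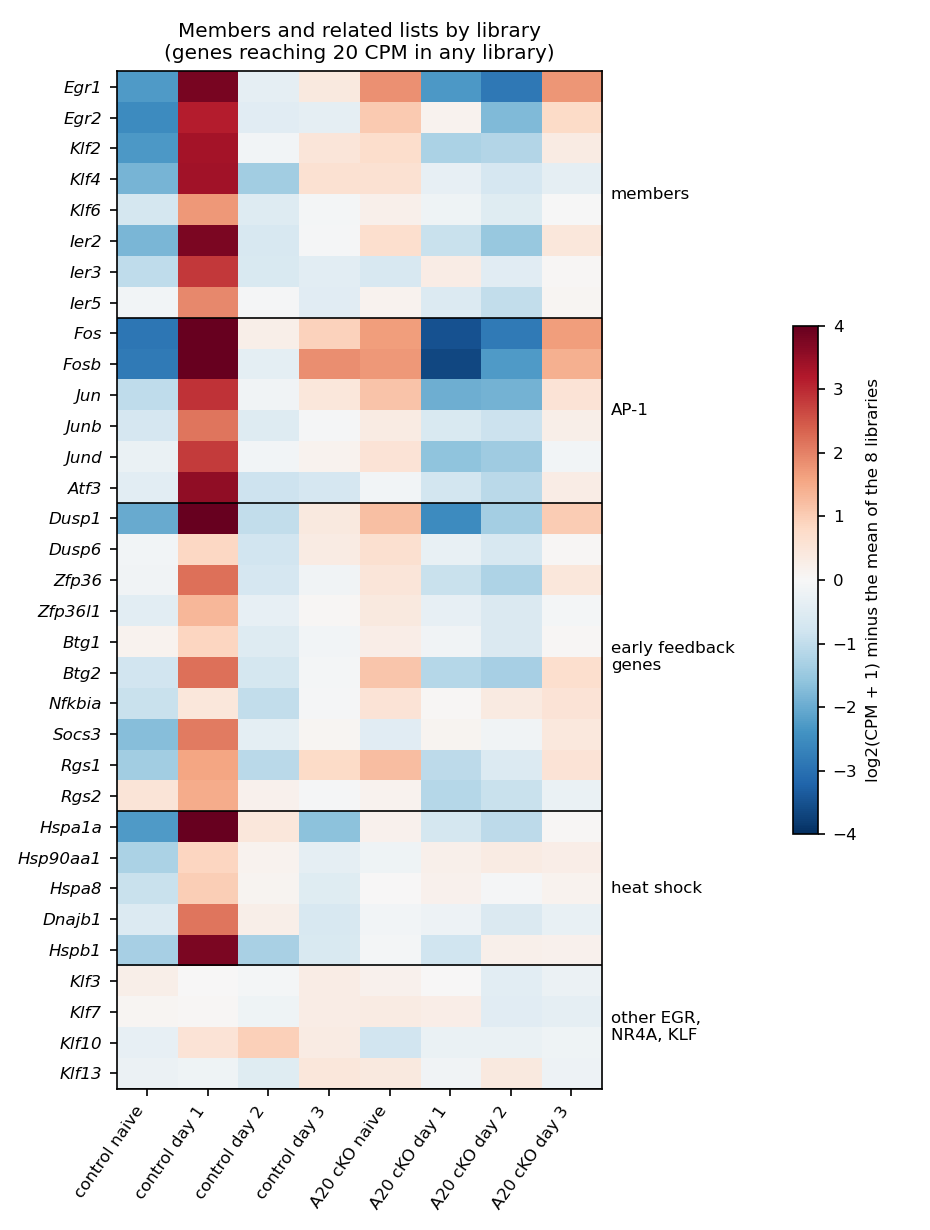
Heat map of log2 (CPM + 1) minus the mean of the 8 libraries, for the 10 genes and the related lists, for genes that reach 20 CPM in any library. Egr3 (at most 8.39 CPM) and Nr4a1 (at most 3.96 CPM) do not reach this level and are not drawn. The control day 1 column is red for the members drawn, AP-1, most feedback genes and heat shock. The A20 cKO day 1 and day 2 columns are blue for Egr1, Fos, Fosb, Jun and Dusp1.

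Across the 8 libraries Egr1 was most like Fos, with a Pearson correlation of log2 CPM of 0.981 among 3470 genes compared, then Jun (0.972) and Acox3 (0.970). Without control day 1 the values for Fos, Jun and Acox3 were 0.969, 0.958 and 0.949. Klf2 was most like Ier2 (0.970), Cited2 (0.961) and Dusp1 (0.955), and Klf4 most like Klf6 (0.965), Zfp36l1 (0.938) and Taf7 (0.937). Ier3 was most like Atf4 (0.971), Srsf6 (0.963) and Pgd (0.951), but without control day 1 these were 0.736, 0.669 and 0.743. Among the 3 genes most like Nr4a1 were Wdr43 (0.903) and Ccdc86 (0.888), neither of them an early response gene, from levels of few UMIs. Without control day 1 these were 0.926 and 0.881. Other genes then ranked highest for Klf4, Nr4a1 and Ier3. Between members, Egr1 and Ier2 had 0.919, and 0.952 without control day 1, whereas Egr1 and Ier3 went from 0.613 to 0.0562. These are descriptions over 8 libraries whose depth, marker RNA and injury differ together.

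Dividing cells were compared with the others. Cells in which 3 or more of 18 core G2/M genes had a UMI were set against the other cells of their library in the 6 libraries with at least 20 of them (33 to 1095 cells), which left out control naive and control day 1. The interval of Egr1 included 0 in all 6, with log2 ratios of −0.49 to 0.23. Ier3 was above 0 in 6 of 6 (0.12 to 0.68), with the interval above 0 in control days 2 and 3. Ier2 and Ier5 were below 0 in 5 of 6 each, with the interval below 0 in 3. The largest of these was Ier2 in A20 cKO day 3 (−1.39, −2.03 to −0.85). Klf2 was below 0 in 3 of 6, with the interval below 0 in 2, and lowest in A20 cKO naive (−0.65, −0.89 to −0.43). Klf4 was below 0 in 4 of 6, with the interval below 0 in A20 cKO naive (−1.18, −2.15 to −0.45) and above 0 in control day 2 (0.42, 0.04 to 0.80). The G2/M cells were deeper in each library, for example 4754 against 2795 UMIs in A20 cKO naive, and the libraries share no test.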

How the data were processed

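RNA of sorted microglia was counted in 8 single-cell libraries made with a 10x Genomics 3′ kit, for which labels and methods give different versions. What the authors deposited were UMI counts, not normalized, for every gene in every cell barcode, and the submitters' processing notes name Cell Ranger 2.1.1 and the build mm10. Per the methods, tissue was homogenized without enzymes, cells were passed through Percoll, and doublets were gated out at the sort. No doublet caller was run here. Of the 27998 gene identifiers, 98.7% matched GENCODE M21.

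Cells were filtered as given in the text, and UMIs were summed per library and scaled to CPM. For log2 ratios 0.5 UMIs were added. A gene was counted as higher or lower at 2-fold or more among genes with at least 100 UMIs in both libraries together. Groups were 1 library each, so no test was made, as cells cannot stand for replicates. Intervals are exact Poisson (levels), Clopper-Pearson (shares) and conditional (ratios) at 95%. They cover counting error only, as does the floor of 3 counts. Shares over several genes were taken on cells thinned without replacement to 2000 UMIs, which left out between 20 and 310 shallower cells per library. Analyses used Python 3.11.15, numpy 2.4.6, scipy 1.17.1, pandas 2.3.3 and matplotlib 3.10.9, and scripts were tested on simulated data.

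The 10 genes and the lists were chosen with earlier results of these data known. Besides them, the text names the 3 genes most correlated with Egr1, Nr4a1, Klf2, Klf4 and Ier3 over the libraries (1 of those for Nr4a1 is not reported here) and the 5 genes with the highest and lowest ratios in cells with 3 or more of the 10 genes, both for genes averaging 50 CPM or more. The alternatives were other cell filters, scalings, added UMIs, thresholds and thinning, and leaving out shared barcodes, very deep cells or cells with markers of other cell types.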

Additional observations from a re-analysis of the deposited data

Results flagged for a closer look

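The log2 ratio of injured to naive cells was past 2-fold in opposite directions in the 2 genotypes for Egr1, Klf2 and Ier2, on days 1 and 2. On day 1 Egr1 was at 6.14 in control and −4.23 in A20 cKO, a difference of 10.37. Klf2 was at 5.64 and −1.97, a difference of 7.61, and Ier2 at 5.60 and −1.55, a difference of 7.15. On day 2 Egr1 was at 1.96 and −4.82, a difference of 6.78, Klf2 at 2.21 and −1.89, a difference of 4.09, and Ier2 at 1.20 and −2.19, a difference of 3.38. Signs were opposite on day 1 also for Klf4 (5.30 and −0.93), Klf6 (2.47 and −0.38) and Ier5 (2.04 and −0.69), within 2-fold in A20 cKO, whereas Ier3 was above 0 in both (3.92 and 0.98). The differences were not tested, since every genotype and time point was 1 library. The 3 control libraries in these ratios are unlinked and the 3 A20 cKO libraries are linked, so genotype and the library split cannot be told apart.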

How the results depend on the processing

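Each value was recomputed under 8 to 11 other settings. Of the recomputed log2 ratios, 958 stayed within the counting interval of the value given, 14 moved beyond it and none past 2-fold changed direction. Ratios that changed sign under any setting had intervals that include 0 (Egr1 and Ier5 in A20 cKO day 3 against naive, Egr2 in control day 3 against day 2, Klf4 in A20 cKO naive against control day 3 and Nr4a1 in control day 2 against naive). Of the counts of genes past 2-fold, 224 stayed within 1.5 times and 18 did not. Without the minimum of 100 UMIs the counts that moved were 1 lower in control day 2 against naive (0 with it), 3 higher in control day 3 against day 2 (1 with it), 1 lower in A20 cKO naive against control day 3 (0), 3 higher in A20 cKO day 3 against control day 3 (1), and 1 higher on each day of A20 cKO against A20 cKO naive (0). At 1.5-fold they were 3 higher in control day 3 against day 2, 1 lower in A20 cKO day 3 against control day 3, 6 lower and 1 higher in A20 cKO day 1 against naive (3 and 0 at 2-fold), and 1 higher and 1 lower on day 3. Without shared barcodes 1 gene, Klf4, was lower in A20 cKO day 3 against both control day 3 (log2 −1.01) and A20 cKO naive (−1.002). Ier3 was past 2-fold on A20 cKO day 1, as 1 gene higher, with all barcodes (1.06), without cells of other-type markers (1.04) and scaled without mitochondrial and ribosomal-protein genes (1.01). With all barcodes Klf2 was at −1.66 there, against −1.97.

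The share of cells with 3 or more of the genes changed with the depth of thinning. Thinned to 1000 UMIs it was 0.528%, 84.8%, 3.63% and 7.46% for control, against 13.9%, 1.81%, 1.80% and 11.6% for A20 cKO, with the same order of the 8 libraries. Without thinning it was 7.92%, 99.7%, 47.9% and 42.8% for control, against 47.8%, 20.7%, 24.3% and 50.7% for A20 cKO. No paired analysis was possible because each group had 1 library. Nr4a1, Egr2 and Egr3 rest on few UMIs in most libraries, and control naive, with 568 cells and 1620481 UMIs, limits the comparisons against it. With 1 library per group no comparison could be repeated with a library left out, whereas the correlations over libraries are given with and without control day 1.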

Other observations

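Cells of A20 cKO naive with a UMI of Cxcl13, 16.5% of its cells, were compared with the others for the genes of the report, a split chosen after values were seen. Cxcl13 had the lowest ratio in the cells of that library with 3 or more of the genes (−1.23). Lower levels of the genes in its cells with Cxcl13 thus turn the same contrast round and add no support to it. Klf2 was at 434 CPM with Cxcl13 and 551 CPM without it (log2 −0.34, −0.46 to −0.23), Klf4 at 47.0 and 65.8 CPM (−0.48, −0.84 to −0.14) and Egr1 at 194 and 225 CPM (−0.21, −0.39 to −0.04). The intervals of Egr2 (0.07), Klf6 (−0.02), Ier2 (−0.13), Ier3 (−0.19) and Ier5 (−0.11) included 0, as did those of Egr3 and Nr4a1, which had few UMIs. The cells with Cxcl13 had a median of 3240.5 UMIs against 2754.5. Klf2 was below 0 in A20 cKO day 1 as well (−0.47, −0.98 to −0.03), and above 0 with an interval that includes 0 on days 2 (0.14, −0.14 to 0.42) and 3 (0.15, −0.05 to 0.34). In cells split by a UMI of Fcrls, a microglial identity gene found in 59.96% of A20 cKO naive cells, Klf2 was at 572 CPM with it and 463 CPM without it (0.30, 0.22 to 0.39). The ratio of Klf2 was above 0 also in A20 cKO day 3 (0.31, 0.12 to 0.49) and control days 1 (0.11, 0.0032 to 0.21) and 2 (0.26, −0.02 to 0.58). It was below 0 in control day 3 (−0.42, −0.56 to −0.27) and A20 cKO days 1 (−0.56, −0.85 to −0.27) and 2 (−0.36, −0.67 to −0.06), so both signs occurred in both genotypes for Klf2. In A20 cKO naive Klf4 (0.41, 0.15 to 0.67), Egr1 (0.19, 0.06 to 0.33) and Ier5 (0.16, 0.05 to 0.27) also had intervals above 0. Those of the other genes of the report included 0. In A20 cKO day 1, where Klf2 was lower, Ier2 (0.70, 0.29 to 1.13) and Klf4 (0.67, 0.04 to 1.37) had intervals above 0. So did Egr1 (1.13, 0.02 to 2.54) and Egr2 (1.97, 0.12 to 5.43), from few UMIs.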
